A study of Homo sapiens with 9 samples.

Results

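The mRNAs of 6 matrix metalloproteinases (MMP1, MMP2, MMP3, MMP10, MMP14 and MMP15) and 3 tissue inhibitors of metalloproteinases (TIMP1, TIMP2 and TIMP3) were followed in ES-2 cells, a human cell line derived from an ovarian carcinoma. These 9 genes, of 58174 in the data, were chosen by name, after MMP2 had been seen to move in opposite directions in the 2 knockdowns. Their changes between the groups are therefore given as a description, with no p-value. Total RNA-seq was made 72 h after transfection with control siRNA (siC), siRNAs directed against IGF2BP1 (siIGF2BP1) or siRNAs directed against SRF (siSRF), with 3 libraries per group. All groups were the same line, grown in medium with serum and transfected, and no other line, time point or untreated sample was used here. Each target was depleted with 1 siRNA pool, so an effect of the depletion and an effect of the pool itself cannot be told apart.

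Matrix metalloproteinases are zinc-dependent endopeptidases that cleave collagens, laminins, fibronectin and other proteins around the cell. Most are secreted as inactive precursors, while MMP14 and MMP15 are anchored in the plasma membrane, and all are blocked by TIMPs, which bind the active site. MMP14 together with TIMP2 also docks the precursor of MMP2 at the cell surface, where MMP14 cleaves it, so TIMP2 both helps to activate and inhibits MMP2. IGF2BP1 is an RNA-binding protein that stabilizes target mRNAs, and SRF is a transcription factor that binds CArG boxes in genes of the cytoskeleton and the growth response.

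In the GENCODE annotation of GRCh38, MMP10, MMP1 and MMP3 lie side by side on the minus strand of chromosome 11, at chr11:102770502-102780628, chr11:102789401-102798160 and chr11:102835801-102843609, within 73.1 kb. MMP2 and MMP15 are both on the plus strand of chromosome 16, at chr16:55389700-55506691 and chr16:58025754-58046901. MMP14 is at chr14:22836560-22849041 on the plus strand, TIMP1 at chrX:47582408-47586789 on the plus strand, TIMP2 at chr17:78852977-78925387 on the minus strand and TIMP3 at chr22:32801705-32863041 on the plus strand. The pseudogene WTAPP1 runs on the opposite strand across MMP10, MMP1 and MMP3 and was at 0.55 FPKM in siC, 0.139 in siIGF2BP1 and 0.361 in siSRF. Whether the counting used the strand is not given in the sources used here. TIMP1 and TIMP3 lie inside the synapsin genes SYN1 and SYN3 on the opposite strand, both listed at 0 in all groups.

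The promoters below are shown for members that differed in level or in change. MMP10 is shown as the low neighbour of MMP1 and MMP3, MMP14 as the membrane-bound protease, and TIMP3 as the inhibitor that fell most in siSRF. They are the 250 bases before the RefSeq start on GRCh38.p14, 5′ to 3′ on the strand of the gene, at chr11:102780629-102780878 (minus), chr14:22836335-22836584 (plus) and chr22:32801455-32801704 (plus). Capitals mark a TATA box (TATAAA) in MMP10 and GC boxes (GGGCGG, or CCGCCC where it lies on the other strand) in MMP14 and TIMP3.

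MMP10 promoter: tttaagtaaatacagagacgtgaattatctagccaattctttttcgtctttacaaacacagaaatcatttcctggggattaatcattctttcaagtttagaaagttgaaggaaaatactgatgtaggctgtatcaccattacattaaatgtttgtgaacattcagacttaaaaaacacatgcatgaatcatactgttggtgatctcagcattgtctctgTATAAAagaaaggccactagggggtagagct

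MMP14 promoter: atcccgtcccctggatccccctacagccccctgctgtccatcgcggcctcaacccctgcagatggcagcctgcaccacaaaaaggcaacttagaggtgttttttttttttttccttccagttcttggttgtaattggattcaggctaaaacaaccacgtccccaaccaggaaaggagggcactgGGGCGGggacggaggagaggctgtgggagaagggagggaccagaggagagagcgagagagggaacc

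TIMP3 promoter: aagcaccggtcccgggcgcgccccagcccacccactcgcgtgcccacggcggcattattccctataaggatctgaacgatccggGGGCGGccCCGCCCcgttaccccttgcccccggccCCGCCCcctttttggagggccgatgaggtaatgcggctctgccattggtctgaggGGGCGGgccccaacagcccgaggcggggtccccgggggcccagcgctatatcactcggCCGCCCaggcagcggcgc

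RefSeq promoters were held for 5 of the 9 members: MMP10, MMP14, MMP15, TIMP1 and TIMP3. MMP1, MMP2, MMP3 and TIMP2 have no entry in that table. On either strand of the same 250 bases, 5 motifs were searched, as exact matches only. They were the AP-1 site (TGACTCA or TGAGTCA), the PEA3 site (AGGAAG), the GC box (GGGCGG), the TATA box (TATAAA) and the CArG box (CCWWWWWWGG, where W is A or T). None of them overlapped another here. A TATA box was found in MMP10, from -31 to -26 relative to the start, and is held by 10.7% of the 35116 promoters in the table. GC boxes were found in MMP14 (1), MMP15 (5), TIMP1 (2) and TIMP3 (5), against 42.6% of all promoters holding at least 1. A PEA3 site was found in TIMP1, from -87 to -82, against 28.7% of all promoters. None of the 5 windows held an exact AP-1 site or CArG box, which 4.2% and 1.16% of all promoters held. Near matches were not searched. The MMP10 window holds tgaatca and the TIMP1 window tgactga and tgagtaa, each 1 base from the AP-1 site. The TIMP3 window holds ccctataagg, 1 base from a CArG box. Without a search, further near matches may be present in any window. How often all promoters hold such near matches was not counted. The GC content was 34.4% in MMP10, 56.8% in MMP14, 64.8% in TIMP1, 72.4% in TIMP3 and 74.8% in MMP15, against a median of 58% over all promoters.

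Each library held between 6421764 and 9416175 reads on genes, and all values below are FPKM, reads scaled to gene length and library size, so that levels of different genes can be compared. In siC, IGF2BP1 had 12.8 ± 0.689 FPKM (SD, n = 3), and in siIGF2BP1 it had 4.11 ± 0.0846, 32.2% of siC. SRF was at 14.5 ± 1.28 FPKM in siC and 1.47 ± 0.145 in siSRF, 10.1% of siC, and was also lower in siIGF2BP1, at 6.01 ± 0.714 FPKM. In each of these 3 cases the groups did not overlap, and the two-sided exact permutation test gave 0.1, the smallest p that 3 against 3 libraries allow (limma adjusted p = 0.000141, 6.07e-05 and 0.00111). Of 7 markers of the line given here, VIM, KRT18 and KRT8 were expressed, and EPCAM, CDH1, PAX8 and WT1 were under 1 FPKM in all 9 libraries. The summed level of the 7 ranged from 1101 to 1116 FPKM in siC, 886.9 to 980.3 in siIGF2BP1 and 924.4 to 979.7 in siSRF. Nearly all of it was VIM, at 1055 ± 9.38 FPKM in siC, 882.6 ± 40.3 in siIGF2BP1 and 853.5 ± 27.9 in siSRF, while the keratin KRT18 rose from 43.4 to 81.7 FPKM in siSRF (limma adjusted p = 0.000329) and its partner KRT8 from 8.81 to 12.9 in siIGF2BP1 (adjusted p = 0.00455). The leukocyte marker PTPRC was at 0 in all libraries. The endothelial markers PECAM1 and CDH5 summed to 8.38 to 10.9 FPKM in siC, 14.5 to 16.4 in siIGF2BP1 and 7.7 to 8.49 in siSRF, nearly all of it from CDH5. Their part in the results below was not tested. In bulk RNA, fewer cells with a transcript and less of it per cell cannot be told apart.

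In control cells the 9 genes spanned a wide range of levels. MMP1, the interstitial collagenase that cuts fibrillar collagen, was far above the rest, at 3823, 3832 and 4168 FPKM, and took between 0.761% and 0.819% of all reads on genes. It made up 98.7% ± 0.031 of the summed FPKM of the 6 metalloproteinases. MMP14 (38.8 ± 1.08 FPKM), TIMP3 (34.8 ± 1.17), TIMP1 (26 ± 4.99), MMP2 (11.2 ± 1.49), TIMP2 (9.02 ± 0.964) and MMP3 (3.86 ± 0.476) followed in this order. Of these neighbours, only MMP2 and TIMP2 overlapped between libraries. MMP15 and MMP10 were at the limit of detection.

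**Figure D1:**
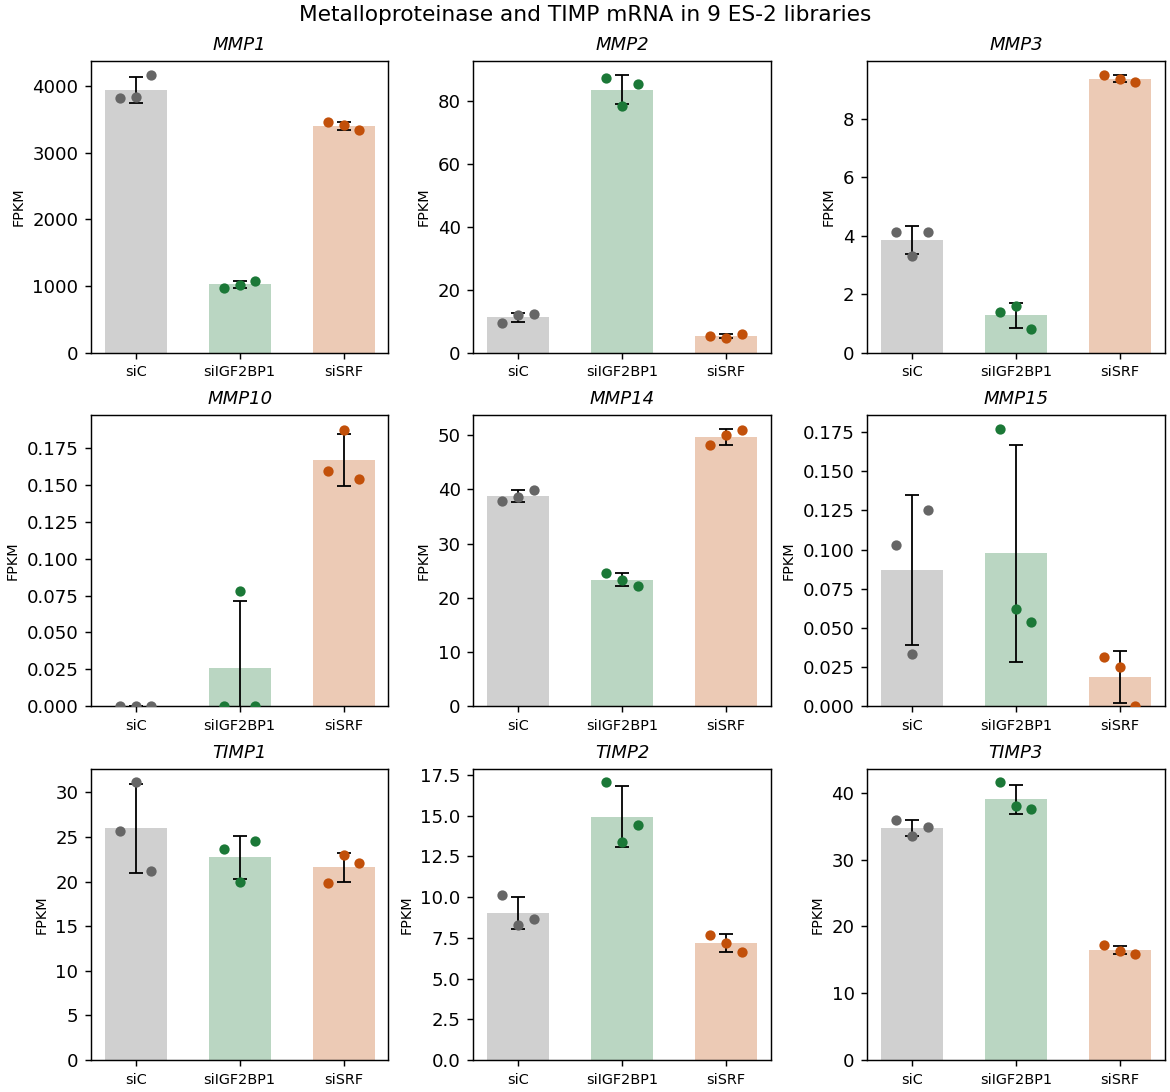
FPKM of the 9 members by group, 1 panel per gene with its own vertical axis from 0, with points for the 3 libraries, bars for the group mean and error bars for the SD. The mean of MMP2 is 11.2 FPKM in siC, 83.5 in siIGF2BP1 and 5.31 in siSRF, while the values of MMP10 and MMP15 rest on at most 6 reads per library.

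The gelatinase MMP2, which degrades denatured collagen and the collagen IV of basement membranes, had 9.46, 11.9 and 12.2 FPKM in the siC libraries. In siIGF2BP1 it had 87.1, 78.2 and 85.1 FPKM, and in siSRF 5.26, 4.71 and 5.97 FPKM. No library of one group overlapped with another group, and siIGF2BP1 and siSRF lay on opposite sides of siC. The log2 fold change against siC was 2.90 ± 0.105 (SE) in siIGF2BP1, 7.45-fold higher, and -1.06 ± 0.131 in siSRF, 2.08-fold lower. Between the knockdowns it was 3.95 ± 0.0919, 15.5-fold higher in siIGF2BP1. In siIGF2BP1, MMP2 passed TIMP3, MMP14 and TIMP1 in level and became the second most abundant member after MMP1. In siSRF it dropped below MMP3 and TIMP2. These values rest on 185 to 3556 reads per library. An unclassified transcript model within MMP2 on the same strand (ENSG00000279030) had 0.14 FPKM in siC, 1.57 in siIGF2BP1 and 0.0981 in siSRF.

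The secreted collagenase MMP1 had 974.8, 1021 and 1076 FPKM in siIGF2BP1 and 3460, 3417 and 3340 in siSRF. All 3 siIGF2BP1 libraries were far below every siC library, and the siSRF libraries were below the siC libraries by a smaller margin. The log2 fold change was -1.94 ± 0.0877 in siIGF2BP1, 3.85-fold lower, and -0.21 ± 0.0928 in siSRF. With trends along GC and length removed, the siSRF value was -0.44. MMP1 was thus lower in both knockdowns, and the 2 depletions differed by -1.73 ± 0.0669 on the log2 scale.

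MMP3, stromelysin-1, which cleaves proteoglycans, laminin and the precursors of other metalloproteinases, had 4.14, 3.31 and 4.12 FPKM in siC. It had 1.4, 1.61 and 0.807 FPKM in siIGF2BP1 and 9.51, 9.37 and 9.27 in siSRF. The 3 groups did not overlap, with siIGF2BP1 lowest and siSRF highest, the reverse of the order of MMP2. The log2 fold change was -1.57 ± 0.261 in siIGF2BP1 and 1.27 ± 0.102 in siSRF, 2.41-fold higher, and -2.84 ± 0.236 between the knockdowns. Counts were low, between 14 and 24 reads per siIGF2BP1 library against 139 to 175 per siSRF library.

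The other stromelysin in the set, MMP10, had 0 reads in each siC library, 0, 1 and 0 in siIGF2BP1 and 2, 3 and 2 in siSRF. The 3 reads taken as the floor correspond to 0.187 to 0.258 FPKM, and no library was above it. No fold change is given for it, and a difference between the groups was not detectable at this depth. MMP15, a membrane-type metalloproteinase like MMP14, had between 1 and 4 reads in siC, 2 and 6 in siIGF2BP1 and 0 and 1 in siSRF, with floors of 0.0745 to 0.103 FPKM, and no fold change is given either.

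The membrane-bound MMP14, which activates MMP2 and cuts collagen at the cell surface, had 37.8, 38.6 and 40 FPKM in siC. It had 24.5, 23.2 and 22.2 FPKM in siIGF2BP1 and 48.1, 50 and 51 in siSRF. MMP14 was thus below all siC libraries in siIGF2BP1 and above them in siSRF, on the opposite side from MMP2 in both. The log2 fold change was -0.73 ± 0.0519 in siIGF2BP1, 1.66-fold lower, 0.36 ± 0.0416 in siSRF, 1.28-fold higher, and -1.09 ± 0.0486 between the knockdowns. With GC and length trends taken out, the value in siSRF was 0.54.

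Of the inhibitors, TIMP1, a broad inhibitor of secreted metalloproteinases, had 25.7, 31.1 and 21.2 FPKM in siC, 23.7, 19.9 and 24.5 in siIGF2BP1 and 19.8, 23 and 22.1 in siSRF. Its groups overlapped in all comparisons, and its siC libraries spread the most of the 3 inhibitors. The log2 fold change was -0.18 ± 0.152 in siIGF2BP1 and -0.25 ± 0.142 in siSRF, and 0.07 ± 0.0954 between the knockdowns. Leaving out 1 library at a time moved the siIGF2BP1 value between -0.32 and -0.04 and the siSRF value between -0.39 and -0.11, each time lowest without siC replicate 3 and nearest 0 without siC replicate 2. TIMP1 was the member with the smallest change between the knockdowns among the 7 tested.

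TIMP2, which inhibits metalloproteinases and bridges the MMP2 precursor to MMP14, had 10.1, 8.28 and 8.66 FPKM in siC. It had 17, 13.4 and 14.4 FPKM in siIGF2BP1 and 7.69, 7.21 and 6.6 in siSRF. As for MMP2, siIGF2BP1 lay above siC and siSRF below it with no overlap, but by smaller factors. Its log2 fold change was 0.72 ± 0.116 in siIGF2BP1, 1.65-fold higher, -0.33 ± 0.0994 in siSRF and 1.05 ± 0.105 between the knockdowns. CEP295NL, which overlaps TIMP2 on the same strand, had 0.417 FPKM in siC, 0.696 in siIGF2BP1 and 0.375 in siSRF.

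TIMP3, the inhibitor that binds to the matrix and also blocks ADAM proteases, had 35.9, 33.5 and 34.9 FPKM in siC, 41.6, 38 and 37.5 in siIGF2BP1 and 17.2, 16.3 and 15.9 in siSRF. The 3 groups did not overlap, and the siSRF libraries were at about the same distance below siC as those of MMP2. Its log2 fold change was 0.17 ± 0.0552 in siIGF2BP1, -1.07 ± 0.0489 in siSRF, 2.1-fold lower, and 1.24 ± 0.0549 between the knockdowns.

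**Figure D2:**
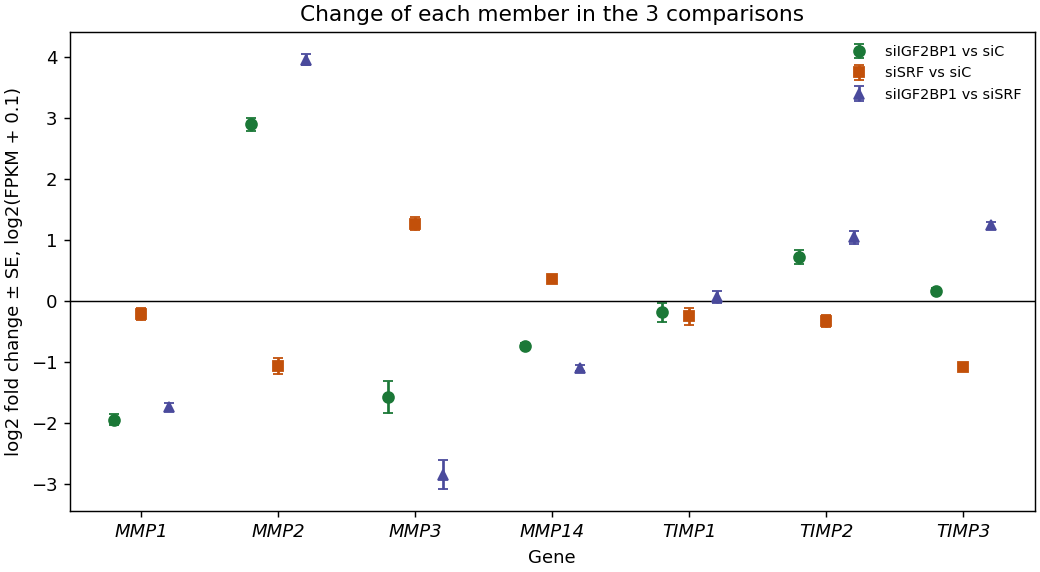
Log2 fold change with its SE, on the scale log2(FPKM + 0.1), of the 7 members that passed the filter, for siIGF2BP1 against siC (circles), siSRF against siC (squares) and siIGF2BP1 against siSRF (triangles). MMP2 is at 2.90 and -1.06 in the knockdowns, and MMP3 and MMP14 lie on the other side of 0 from MMP2 in each of them.

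Of the 9 members, 7 passed the filter of 0.1 FPKM on the mean in each comparison, and MMP10 and MMP15 did not. A gene was called where limma gave an adjusted p of at most 0.01. In siIGF2BP1 against siC, where 7.12% of all 22292 genes were called (3.55% higher, 3.57% lower), 2 members lay past this threshold upwards, 2 downwards. In all it was 3 with any 1 library left out. In siSRF against siC it was 2 and 2, or 2 in all without siSRF replicate 2, where 12.2% of 21857 genes were called, 6.85% higher and 5.34% lower. Between the knockdowns it was 3 and 3, where 20% of 22311 genes were called, 8.82% higher and 11.2% lower. The members were chosen with these comparisons known, so these counts describe the choice, and nothing is read from them. The median log2 fold change over the 7 was -0.18 in siIGF2BP1, -0.25 in siSRF and 0.07 between the knockdowns, against 0.02, 0.01 and 0.02 over all genes tested. P-values here measure the spread between libraries, which may be technical, since nothing in the labels says that the libraries came from separate cultures.

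The ratios between the members were compared within each library, again as a description. In siC the ratio of MMP2 to TIMP2 was 0.935, 1.44 and 1.4, in siIGF2BP1 5.11, 5.86 and 5.9, and in siSRF 0.684, 0.654 and 0.904. The groups did not overlap, although the highest siSRF library and the lowest siC library were close. MMP14 to TIMP2, the pair that docks the MMP2 precursor, moved the other way, with 4.34 ± 0.517 (SD, n = 3) in siC, 1.57 ± 0.151 in siIGF2BP1 and 6.98 ± 0.737 in siSRF. The ratio of MMP2 to MMP14 was 0.288 ± 0.0326 in siC, 3.58 ± 0.233 in siIGF2BP1 and 0.107 ± 0.0115 in siSRF. In these cells the more abundant of the pair was MMP14 in siC and siSRF and MMP2 in siIGF2BP1.

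**Figure D3:**
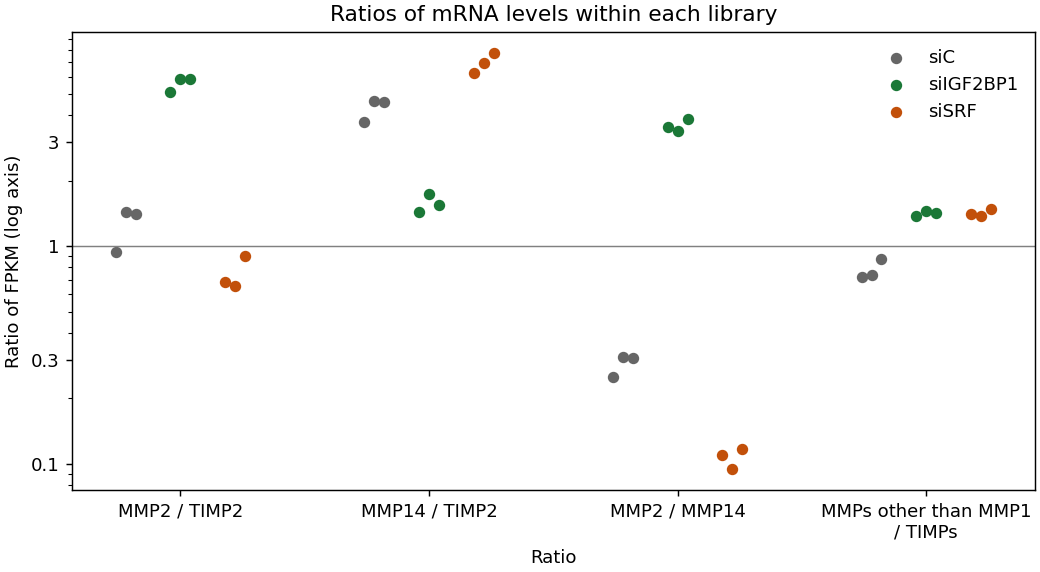
Ratios of FPKM within each library on a log axis, with points for the 3 libraries of siC, siIGF2BP1 and siSRF. MMP2 to MMP14 is 0.288 in siC, 3.58 in siIGF2BP1 and 0.107 in siSRF. The ratio of the metalloproteinases other than MMP1 to the TIMPs is higher in both knockdowns than in siC. It leaves out MMP1, which makes up most of the metalloproteinase FPKM.

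The summed FPKM of the 6 metalloproteinases was 3995 ± 199 in siC, 1132 ± 48.6 in siIGF2BP1 and 3471 ± 59.1 in siSRF, and followed MMP1, which made up 90.4% ± 0.72 of it in siIGF2BP1 and 98.1% ± 0.0805 in siSRF. Without MMP1 the sum was 53.9 ± 2.42, 108.2 ± 5.01 and 64.6 ± 1.68 FPKM. MMP2 supplied 20.7% ± 2.03 of this remainder in siC, 77.1% ± 1.44 in siIGF2BP1 and 8.22% ± 0.831 in siSRF. The summed FPKM of the 3 TIMPs was 69.8 ± 4.42 in siC, 76.7 ± 5.5 in siIGF2BP1 and 45.3 ± 1.1 in siSRF, where TIMP3 went from 50% ± 3.96 of the sum to 36.4% ± 1.77. Over the TIMPs, the metalloproteinases other than MMP1 came to 0.776 ± 0.0826 in siC, 1.41 ± 0.0358 in siIGF2BP1 and 1.43 ± 0.0556 in siSRF. Both knockdowns were above siC in every library, with more MMP2 mRNA in siIGF2BP1, and in siSRF with more MMP14 and MMP3 mRNA and less TIMP3 mRNA, although MMP2 was lower there. In siIGF2BP1 this direction depends on leaving out MMP1. With MMP1, the summed metalloproteinases were far lower than in siC, while the TIMP sum was not lower. MMP16 and MMP17, at 5.01 and 3.47 FPKM in siC, are not members and are not in these sums. The sums weigh mRNA only, and no protein or enzyme activity was measured here.

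Among the 14167 other genes that averaged 1 FPKM or more, the 5 whose profile over the 9 libraries was most like that of MMP2 were found by the smallest root mean square difference of centred log2 values. COL5A1, a chain of fibrillar collagen V, was nearest, at 0.14, with 5.81 ± 0.206 FPKM in siC, 36.8 ± 1.68 in siIGF2BP1 and 2.66 ± 0.374 in siSRF. The lincRNA RP1.140K8.5 was at 0.229, with 0.499 ± 0.0597, 5.83 ± 0.54 and 0.186 ± 0.00675 FPKM. ADAMTS15, a secreted protease that cleaves proteoglycans, was at 0.247, with 0.657 ± 0.122, 5.33 ± 0.285 and 0.17 ± 0.064 FPKM. Its siSRF values rest on 5 to 9 reads per library. The log2 fold change of ADAMTS15 between the knockdowns was 4.36, or 2.44 with a pseudocount of 1. Likeness to MMP2 was not computed with other pseudocounts. GLT8D2 and SAMD9L followed at 0.279 and 0.332. All 5 lay above siC in siIGF2BP1 and below it in siSRF, which the choice by likeness fixes. No member was that near: TIMP2 was at 1.25, TIMP3 at 1.29, TIMP1 at 1.69, MMP14 at 2.13, MMP1 at 2.51 and MMP3 at 2.84.

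**Figure D4:**
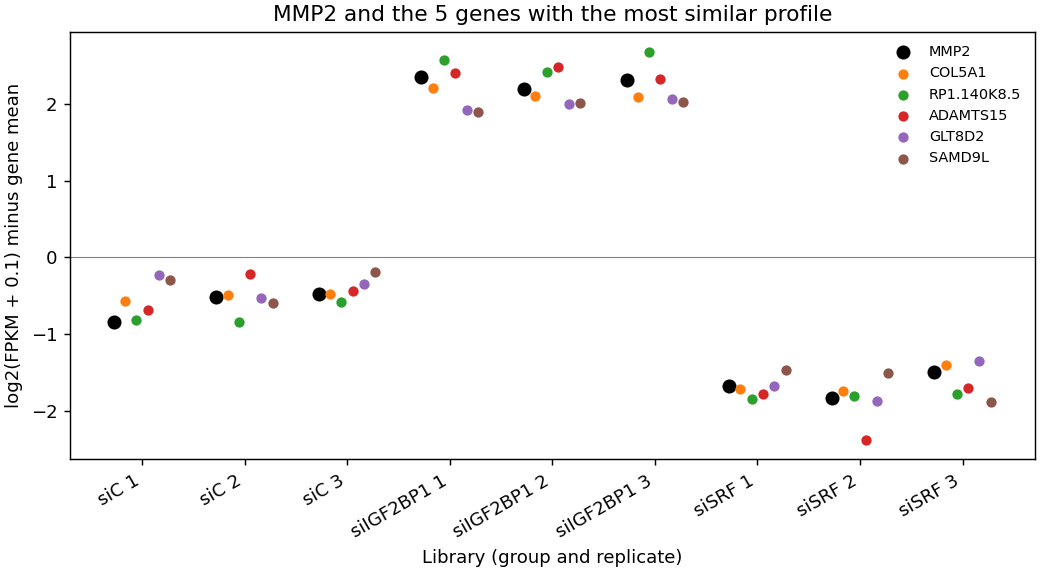
Log2(FPKM + 0.1) minus the mean of each gene over the 9 libraries, for MMP2 (large black points) and the 5 genes with the most similar profile. In each library the points of COL5A1, at a root mean square difference of 0.14, lie close to those of MMP2, and all 6 genes are highest in siIGF2BP1 and lowest in siSRF.

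The other genes of the pathway came from 7 lists with 99 genes in all, and these were tested in the same fit over all genes. The lists, too, were chosen with earlier results of these data known. In siIGF2BP1 against siC, 23 of the 69 listed genes tested were called, 15 higher and 8 lower, where 7.12% of all genes were called. In siSRF against siC, 21 of 66 were called, 14 higher and 7 lower, against 12.2% of all genes. Between the knockdowns it was 37 of 69, with 22 higher in siIGF2BP1 and 15 lower, against 20% of all genes. The counts for each list below stand beside the same shares, of which 3.55% were higher and 3.57% lower in siIGF2BP1, and 6.85% higher and 5.34% lower in siSRF. The shares over all genes depend on the filter. Among genes averaging 1 FPKM or more they were larger, with 1931 of 14263, 3140 of 14008 and 4759 of 14195 called. All 81 calls of listed genes held under that filter, so the excess over all genes was smaller there. The median log2 fold change over these lists was 0.19, 0.03 and 0.35, against 0.02, 0.01 and 0.02 over all genes. When any 1 library was left out, 13 of the 23, 11 of the 21 and 27 of the 37 calls held each time.

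Of the 17 other metalloproteinases, 5 had no read in any library and 13 did not pass the filter in siIGF2BP1 against siC. The remaining MMP16, MMP17, MMP19 and MMP24 gave 0 calls by limma in siIGF2BP1, with 4 at an unadjusted p under 0.05 and 2 called by limma-voom. In siSRF, 3 were tested and 0 were called by limma, with 2 at an unadjusted p under 0.05 and 1 called by limma-voom. MMP17, anchored in the membrane by a lipid, had 3.47 ± 0.532 FPKM in siC, 4.53 ± 0.288 in siIGF2BP1 and 1.65 ± 0.389 in siSRF. It differed between the knockdowns, by a log2 fold change of 1.43 ± 0.177 (limma adjusted p = 0.00151). The gelatinase MMP9, the other enzyme of the MMP2 kind, had at most 2 reads in any library, so a difference was not detectable at this depth. MMP9 was named after its values were seen.

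Among 4 other inhibitors, TFPI2, a protease inhibitor of the matrix, rose in siSRF from 27.6 ± 1.83 to 56.4 ± 1.64 FPKM, a log2 fold change of 1.03 ± 0.0581 (limma adjusted p = 0.000329). In siIGF2BP1 it was at 35.4 ± 0.881 FPKM, just short of the threshold (adjusted p = 0.0102), and it was higher in siSRF than in siIGF2BP1 (log2 fold change of siIGF2BP1 against siSRF -0.67 ± 0.0381, adjusted p = 8.05e-05). In siIGF2BP1, 0 of the 3 inhibitors tested were called by limma, with 1 at an unadjusted p under 0.05 and 1 called by limma-voom. TIMP4, the remaining TIMP, had at most 1 read in any library. It too was named after its values were seen.

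Of 15 genes for activation and docking of metalloproteinases, 11 were tested, and 4 were higher and 2 lower in siIGF2BP1 against siC. The integrin subunit ITGAV, which pairs with ITGB3 to hold active MMP2 at the surface, rose from 7.4 ± 0.318 to 20.5 ± 0.764 FPKM, a log2 fold change of 1.46 ± 0.0581 (adjusted p = 0.000132). LRP1, a receptor that clears MMP2 and other proteases, rose by 1.34 ± 0.108 on the log2 scale (adjusted p = 0.000964), and the membrane scaffold CAV1 by 0.73 ± 0.0479 (adjusted p = 0.000514). PLAUR, the urokinase receptor, fell from 24.1 ± 0.513 to 13.5 ± 0.466 FPKM, a log2 fold change of -0.84 ± 0.048 (adjusted p = 0.000357). In siSRF, 3 of 11 were higher and 1 lower. PLAUR rose to 45.3 ± 2.65 FPKM (0.91 ± 0.0531, adjusted p = 0.000341) and PLAT, the tissue plasminogen activator, from 98.5 ± 4.56 to 181.3 ± 6.02 (0.88 ± 0.0492, adjusted p = 0.000329). ITGAV rose as well, by 0.66 ± 0.0562 (adjusted p = 0.000826), or 0.44 with GC and length trends taken out. Its partner ITGB3, given after its values were seen, had 0.518 ± 0.0163 FPKM in siC. ITGB3 rose to 2.015 ± 0.185 in siIGF2BP1 (adjusted p = 0.00212), a call lost on leaving out 3 of the 6 libraries in turn. In siSRF it was lower, at 0.194 ± 0.132 on 2 to 10 reads per library, and not called (adjusted p = 0.123). BSG, which induces metalloproteinases, fell by 0.46 ± 0.0468 on the log2 scale (adjusted p = 0.00141), or by 0.25 with those trends taken out, and its call was lost without siSRF replicate 2 (adjusted p = 0.0103). Between the knockdowns 5 of the 11 were higher in siIGF2BP1 and 3 lower. ITGAV, LRP1, PLAT and PLAUR had the smallest p-values of these, and PLAUR differed by -1.74 ± 0.0552 (adjusted p = 1.4e-05).

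The ADAM family, membrane-anchored relatives of the metalloproteinases that shed surface proteins, had 10 of 11 genes tested, and 4 were higher and 0 lower in siIGF2BP1 against siC. ADAM19 rose by 1.41 ± 0.0577 (adjusted p = 0.000141), ADAM12 by 1.36 ± 0.0689 (adjusted p = 0.000215), ADAM17, which releases TNF, by 0.91 ± 0.071 (adjusted p = 0.000854), and ADAM9 by 0.80 ± 0.064 (adjusted p = 0.000926), all on the log2 scale. In siSRF, ADAM9, ADAM17 and ADAM10 were called higher and ADAM15 lower. ADAM9 rose from 22.5 ± 1.8 to 46 ± 1.11 FPKM (1.03 ± 0.0644, adjusted p = 0.000399) and ADAM15 fell from 28.3 ± 2.88 to 17 ± 1.19 (-0.73 ± 0.0907, adjusted p = 0.00272). The calls of ADAM10, ADAM15 and ADAM17 in siSRF were lost on leaving out 6, 4 and 4 of the 6 libraries in turn, with adjusted p up to 0.0326, 0.0157 and 0.0214. ADAM10 had a log2 fold change of 0.33 ± 0.0523, which was 0.20 with GC and length trends taken out. Between the knockdowns, ADAM12, ADAM19, ADAM15 and ADAM17 had the smallest p-values of the 5 genes called. ADAM12 had 31.3 ± 1.18 FPKM in siIGF2BP1 and 9.01 ± 0.707 in siSRF (1.79 ± 0.0683, adjusted p = 2.35e-05).

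Of 19 ADAMTS genes, secreted proteases that mostly cut proteoglycans and procollagens, 12 were tested, and 2 were higher and 2 lower in siIGF2BP1 against siC. ADAMTS15 had a log2 fold change of 2.85 ± 0.165 (adjusted p = 0.000359), or 1.93 with a pseudocount of 1, and ADAMTS12 of 0.74 ± 0.0597 (adjusted p = 0.000949). ADAMTS1 and ADAMTS6 fell, to 18.6 ± 0.424 from 26.7 ± 1.6 FPKM and to 9.4 ± 0.623 from 15.4 ± 1.11 FPKM, and both calls were lost on leaving out 4 of the 6 libraries in turn (adjusted p up to 0.0182 and 0.0171). In siSRF, ADAMTS1 rose to 75.3 ± 1.91 FPKM, 2.82-fold (SE 0.0532 on the log2 scale, adjusted p = 6.26e-05). Its difference between the knockdowns, -2.01 ± 0.0368 (adjusted p = 6.13e-06), took the same direction as those of MMP1, MMP3 and MMP14. ADAMTS2, which trims procollagen, fell in siSRF from 7.14 ± 0.534 to 3.32 ± 0.427 FPKM (-1.09 ± 0.117, adjusted p = 0.00168), a call lost without siSRF replicate 1 (adjusted p = 0.0104).

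The substrates of these enzymes were represented by 16 matrix genes, of which 12 were tested in siIGF2BP1 against siC, with 4 higher and 1 lower. The collagen IV chains COL4A1 and COL4A2, basement membrane targets of MMP2, rose from 6.71 ± 0.419 to 22.1 ± 0.259 FPKM (1.71 ± 0.0608, adjusted p = 0.000101) and from 16.1 ± 1.2 to 49.2 ± 2.18 (1.61 ± 0.0682, adjusted p = 0.000141). COL1A1, a chain of the collagen I that MMP1 cuts, rose from 3.5 ± 0.719 to 20.9 ± 4.3 FPKM (2.54 ± 0.198, adjusted p = 0.000854). Its partner chain COL1A2 had at most 2 reads in any library, and was named after its values were seen. Fibronectin (FN1) fell by 0.80 ± 0.0889 on the log2 scale (adjusted p = 0.00267), a call lost on leaving out 5 of the 6 libraries in turn (adjusted p up to 0.014). In siSRF, 1 of 11 was higher and 3 lower. FN1 fell to 3.15 ± 0.135 from 8.25 ± 0.427 FPKM (-1.36 ± 0.0772, adjusted p = 0.000329) and the laminin chain LAMA5 to 0.397 ± 0.0335 from 2.41 ± 0.26 (-2.34 ± 0.19, adjusted p = 0.000731, or -1.29 with a pseudocount of 1). NID1, which links laminin to collagen IV, and the laminin chain LAMB1 changed by -1.49 ± 0.238 and 0.31 ± 0.0423 (adjusted p = 0.00661 and 0.00365), and lost their calls on leaving out 6 and 5 of the 6 libraries in turn (adjusted p up to 0.0267 and 0.0182). NID1 was at -0.94 with a pseudocount of 1.

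Of 17 transcription factors known to act on metalloproteinase promoters, all tested, 1 was higher and 3 were lower in siIGF2BP1 against siC, while 5 were higher and 1 was lower in siSRF. ETS2, which acts at PEA3 sites, fell in siIGF2BP1 from 7.08 ± 0.252 to 2.59 ± 0.683 FPKM (-1.45 ± 0.181, adjusted p = 0.004) and rose in siSRF to 12.9 ± 0.431 (0.86 ± 0.057, adjusted p = 0.000458). ETV4, of the same family, fell in siIGF2BP1 to 4.02 ± 0.719 from 9.23 ± 0.253 FPKM (adjusted p = 0.00311), and FOSL1, an AP-1 subunit, by 0.50 ± 0.075 (adjusted p = 0.00774), while STAT3 rose by 0.63 ± 0.0614 (adjusted p = 0.00172). These 4 calls in siIGF2BP1 were less stable: ETS2, ETV4, FOSL1 and STAT3 lost theirs on leaving out 5, 5, 6 and 2 of the 6 libraries in turn, with adjusted p up to 0.0235, 0.0164, 0.037 and 0.0127. The AP-1 subunits JUN, FOSL2 and JUNB rose in siSRF, JUN from 45 ± 3.21 to 79.8 ± 2 FPKM (0.83 ± 0.0588, adjusted p = 0.000508), FOSL2 by 0.48 ± 0.0465 (adjusted p = 0.00124) and JUNB by 0.61 ± 0.0666 (adjusted p = 0.00177, or 0.0127 without siSRF replicate 2). Between the knockdowns 7 of the 17 were lower in siIGF2BP1 and 2 higher, among them JUN by -0.70 ± 0.0545 (adjusted p = 0.000245) and ETS2 by -2.31 ± 0.175 (adjusted p = 0.000221).

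**Figure D5:**
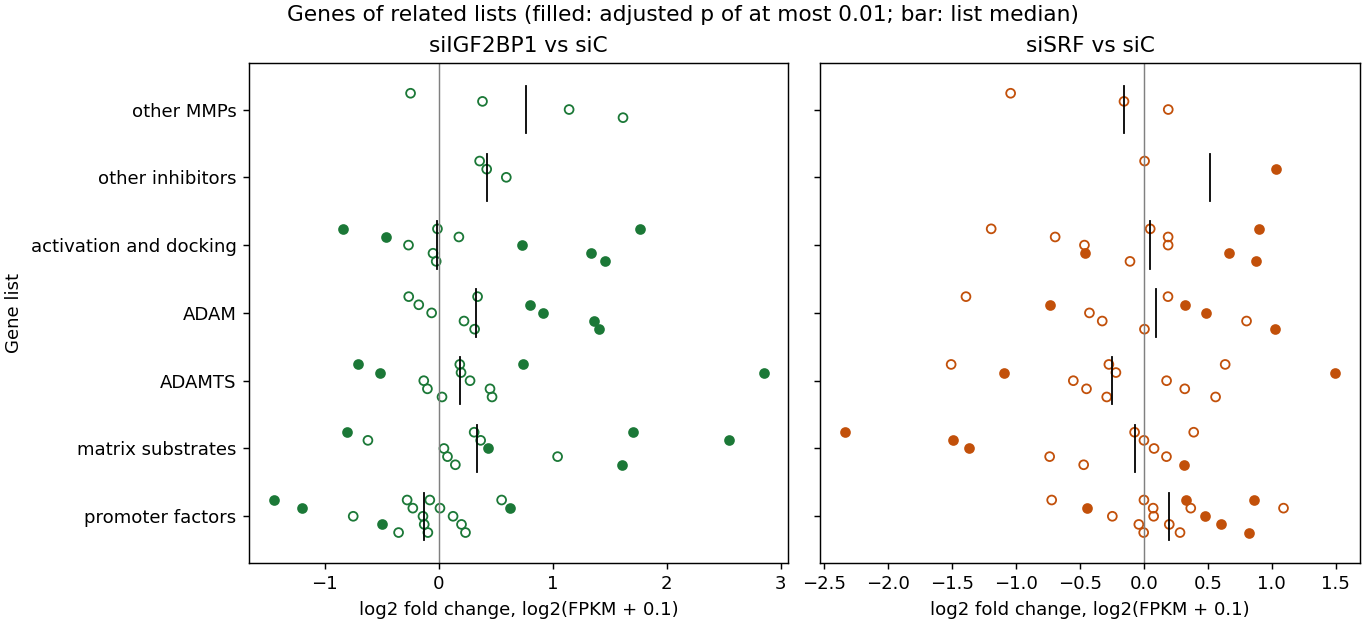
Log2 fold change of the tested genes of the 7 lists, 1 row per list, for siIGF2BP1 against siC (left) and siSRF against siC (right), with filled points for genes called at an adjusted p of at most 0.01 and a bar at the median of each list. The called ADAM genes all lie to the right of 0 in siIGF2BP1, and most promoter factors called in siSRF lie to the right of 0, with 5 higher and 1 lower.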

How the data were processed

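Libraries were made by the authors from rRNA-depleted total RNA of ES-2 cells with a directional kit. Per the labels and the study's methods, reads were trimmed with cutadapt 1.14, aligned with HISAT2 2.1.0 to hg38 and counted on Ensembl genes with featureCounts 1.5.3; SAMtools 1.5 and edgeR 3.18.1 are also named in the submitters' processing notes. The strand setting of the counting is not given in the sources used here. The authors deposited FPKM per library after TMM scaling, with gene lengths, in 2 tables that share the siC values. Their fold changes, p-values and FDR were not used.

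Whole reads were recovered for 100% of values (tolerance 0.01 reads), giving 6421764 to 9416175 reads on genes per library. Replicates differed by more than counting noise, with a chi-square per degree of freedom of 1.73 to 3.94. Groups were taken from the sample titles. Each pair of groups was compared by limma 3.58.1 (lmFit, eBayes with trend; R 4.3.3) on log2(FPKM + 0.1), which understates changes of low genes. Genes averaging 0.1 FPKM or more in the 6 libraries were kept, Benjamini-Hochberg adjustment ran over all of them, and genes were called at an adjusted p of at most 0.01. Exact permutation tests used scipy 1.17.1. Standard errors come from the limma fit. On simulated reads, limma on log2 FPKM recovered fewer of the changed genes than limma-voom, and nearly all of its false calls were genes with few reads. A floor of 3 reads covers counting error only. Named were the members, IGF2BP1 and SRF, up to 4 called genes of smallest p per list and comparison, and the 5 genes most like MMP2. Members and lists were chosen with earlier results of these data known. Positions come from GENCODE v44 and promoters from RefSeq. The alternatives were other pseudocounts, filters, scaling, limma-voom on recovered reads, blocking by replicate number, fitting all 9 libraries together, another threshold, leaving out each library and, chosen after seeing the data, removal of GC and length trends. One marker of the line is not reported here.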

Additional observations from a re-analysis of the deposited data

How the results depend on the processing

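All settings named here kept the direction of change against siC of every member given a fold change, which leaves out MMP10 and MMP15. Numbers of called genes moved more. With limma-voom the listed genes called in siSRF were 38, and all genes called were 3805, 5123 and 6912 in siIGF2BP1 against siC, siSRF against siC and siIGF2BP1 against siSRF, compared with 1588, 2665 and 4460. At an adjusted p of at most 0.05 they were 3596, 5205 and 7132, with 35 listed genes in siSRF. With all 9 libraries in one fit, 2475 genes were called in siIGF2BP1 and 32 listed genes in siSRF. Whether equal replicate numbers mark paired samples is not given in the labels. Deviations of same-numbered libraries correlated at -0.044 to 0.019 over 14168 genes. At most 1 of the 3 libraries of a group correlated best with its own number. No pairing was visible in these values, which does not exclude it. With the replicate number as a block, members called were 2, 2 and 6, listed genes 5, 9 and 23, and all genes 91, 501 and 2075, and the share of higher genes among those called in siIGF2BP1 was 65.9%. Leaving out 1 library gave 3 members in siIGF2BP1, 2 to 4 in siSRF and 6 between the knockdowns. Listed genes were then 13 to 18, 13 to 16 and 28 to 31, and all genes 436 to 738, 946 to 1796 and 2885 to 3358. The cause of these shifts was not tested, beyond the fewer libraries. Taking out GC and length trends gave MMP1 -2.03, -0.44 and -1.60 and MMP14 -0.65, 0.54 and -1.19 in the 3 comparisons, and TIMP1 and TIMP2 -0.09 and -0.20 in siSRF. A pseudocount of 1 gave MMP3 -1.11, 1.10 and -2.21, and MMP2 3.75 between the knockdowns. TIMP1 between the knockdowns ranged from -0.04 to 0.16. Under the settings that kept all libraries, no other fold change of a member moved by more than the spread between replicates. The summed levels did not move by more than it under rescaling. Leaving out 1 of 3 libraries cannot shift a mean by more than that spread, and rescaling cannot change a ratio within a library. Those outcomes were fixed in advance, and nothing is read from them. Depth limits MMP10 and MMP15.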
